A study of Mus musculus with 9 samples.

Results

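Integrins and Cd44 are cell-surface receptors through which leukocytes hold on to other cells and to the extracellular matrix. Transcripts of 10 such genes were measured in splenic B cells of 9 mice, namely Itgb7, Itgb1, Itgb2, Itgb3, Itgal, Itga4, Itga6, Itgam, Itgax and Cd44, out of 22174 genes in the authors' table on the reference that also held the human transgenes. The genes were chosen by name for their role in adhesion, with earlier results of these data known. Mice were on the C57/BL6NTac background and fell into 3 groups of 3: Eµ-MTCP1 mice of founder line Z36, which carry human MTCP1, Eµ-TCL1 mice, which carry human TCL1, and wildtype mice without a transgene. Per the study's methods both transgenes are driven by a VH promoter and the IgH-Eµ enhancer, which direct expression to B cells, and both kinds of transgenic mice had reached a high burden of a leukemia that resembles chronic lymphocytic leukemia. The transgenic mice were matched for age, wildtype mice were littermates that lacked hMTCP1, B cells were enriched from spleen with a pan-B-cell kit, and ages are not given in the sources used here. The question was which adhesion genes differ between leukemic and normal splenic B cells, and whether the leukemias driven by either transgene differ from each other.

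An integrin is a heterodimer of an alpha and a beta subunit, and a B cell can place the same subunit in several dimers. The alpha chain encoded by Itga4 pairs with the product of Itgb1 to bind Vcam1 and fibronectin, or with that of Itgb7 to bind Madcam1, the addressin of gut venules. The product of Itgb2 pairs with those of Itgal, Itgam or Itgax to bind Icam proteins and complement fragments, and Cd44 binds hyaluronan. In human chronic lymphocytic leukemia the chain encoded by ITGA4 and CD44 are used as markers of outcome.

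Each library held 6443751 to 7985864 reads on genes of the coding-sequence reference, and values below are CPM, counts scaled by TMM and by reads per library, at which 3 reads correspond to 0.326 to 0.496 CPM. The B-cell receptor genes Cd79a and Cd79b were at 2433 to 4092 and 1606 to 2906 CPM in the 9 libraries. B1-cell genes summed to 553 to 788 CPM in transgenic mice and 47.8 to 75.2 CPM in wildtype mice, whereas follicular and marginal zone genes summed to 400 to 642 and 2279 to 2959 CPM. Of the B1-cell sum, Zbtb32 alone made up 312 to 612 CPM in transgenic mice. In each comparison with wildtype 5 of the 6 B1-cell genes were higher at an adjusted p under 0.05 (edgeR). Neutrophil genes summed to 2457 CPM in Eµ-MTCP1 mouse 1 and 4475 CPM in wildtype mouse 2, and to 27.9 to 378 CPM in the other libraries. On the authors' log2 scale, TCL1A lay between 14.9 and 15.6 in Eµ-TCL1 mice and at most at 6.96 elsewhere, and MTCP1 between 11.1 and 12.3 in Eµ-MTCP1 mice and at most at 6.19 elsewhere.

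All 10 genes had enough reads to be tested. In Eµ-MTCP1 against wildtype mice 4 of them were called (adjusted p under 0.05, quasi-likelihood F test of edgeR), where 9.49% of 11161 tested genes were called. The same number was called in Eµ-TCL1 against wildtype mice, where 9.16% of all genes were called, and in the mean of both transgenic groups against wildtype, where 13.1% were. Both comparisons share the wildtype mice. In each of them Itgb7, Itgb1 and Cd44 were higher and Itgb3 was lower in transgenic mice, while Itgb2 and the 5 alpha subunits were not called. The median log2 fold change of the 10 genes was 0.16 in Eµ-MTCP1 and 0.21 in Eµ-TCL1 mice, against -0.02 and -0.01 over all tested genes. Because these are bulk libraries, fewer cells of a type and less RNA per cell cannot be told apart.

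**Figure D1:**
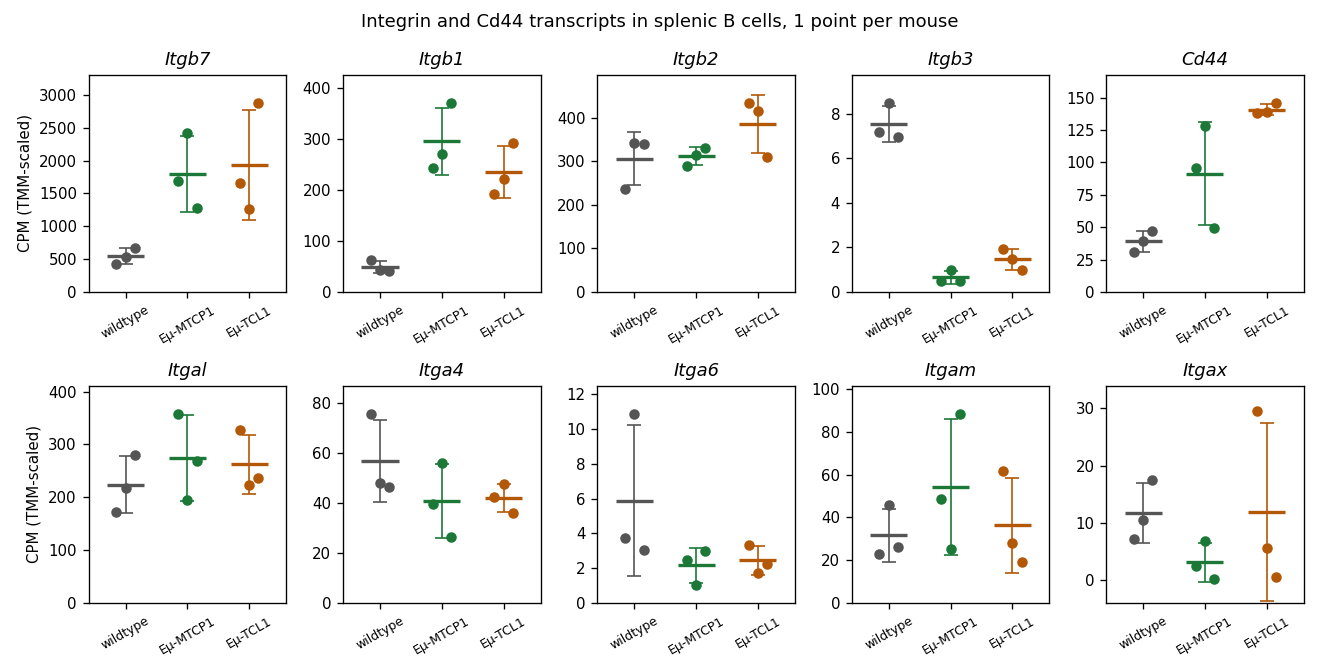
CPM (TMM-scaled, linear axis) of each gene, with 1 point per mouse, a line at the group mean and bars of 1 SD (n = 3 per group). Itgb7, Itgb1 and Cd44 lay higher in all 6 transgenic mice than in any wildtype mouse and Itgb3 lay lower, whereas the groups overlapped for the other 6 genes.

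**Figure D2:**
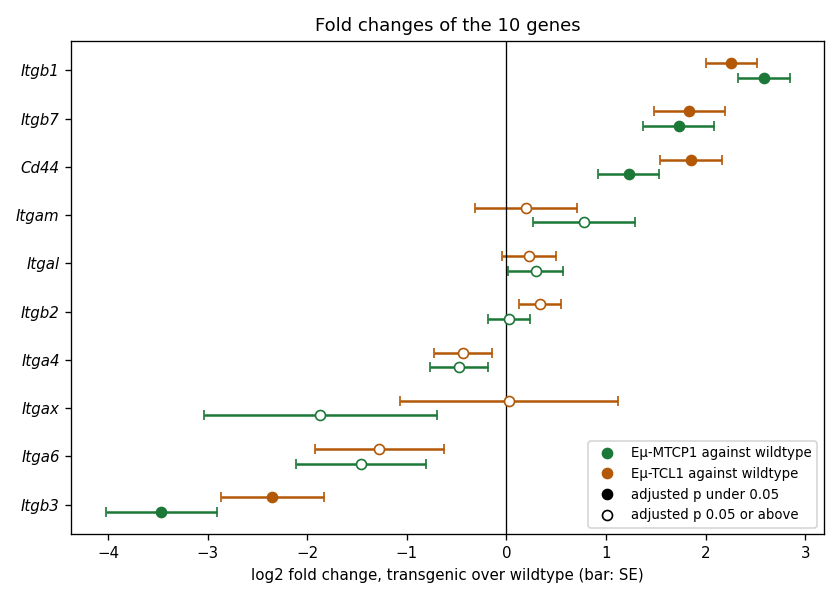
Log2 fold change over wildtype (horizontal axis) with its SE for each gene, in Eµ-MTCP1 and Eµ-TCL1 mice. Filled points mark an adjusted p under 0.05, which Itgb1, Itgb7, Cd44 and Itgb3 reached in both comparisons.

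Itgb7 (chr15:102215995-102231944, minus strand, GRCm38) encodes the beta chain of the gut-homing integrin. It was at 1277, 2424 and 1691 CPM in Eµ-MTCP1 mice 1 to 3, at 2877, 1264 and 1658 CPM in Eµ-TCL1 mice and at 668, 533 and 424 CPM in wildtype mice. Every transgenic mouse lay above every wildtype mouse, as did 9.44% of all tested genes, and the lowest transgenic value was an Eµ-TCL1 mouse. The level rose 3.32-fold in Eµ-MTCP1 mice (log2 fold change 1.73 ± 0.36 SE, adjusted p = 0.0133) and 3.57-fold in Eµ-TCL1 mice (1.83 ± 0.36, adjusted p = 0.00985). The call was lost in Eµ-MTCP1 mice without wildtype mouse 2 (adjusted p = 0.0589) or wildtype mouse 3 (0.0732), and in Eµ-TCL1 mice without wildtype mouse 3 (0.0583). In the mean of both transgenic groups against wildtype it passed in all 18 alternatives.

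Itgb1 (chr8:128685654-128733200, plus strand) encodes the beta chain shared by the receptors for fibronectin, laminin and collagen. It was at 370, 271 and 243 CPM in Eµ-MTCP1 mice, at 292, 221 and 192 CPM in Eµ-TCL1 mice and at 41.6, 43.4 and 62.2 CPM in wildtype mice. The groups did not overlap. The level rose 6.003-fold in Eµ-MTCP1 mice (log2 fold change 2.59 ± 0.26 SE, adjusted p = 0.00035) and 4.78-fold in Eµ-TCL1 mice (2.26 ± 0.26, adjusted p = 0.000588). Both calls held in all 19 alternatives, with adjusted p of at most 0.00997 and 0.0312.

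Cd44 (chr2:102811141-102901665, minus strand), the hyaluronan receptor, was at 49.3, 128 and 95.8 CPM in Eµ-MTCP1 mice, at 146, 139 and 138 CPM in Eµ-TCL1 mice and at 46.9, 39.5 and 30.4 CPM in wildtype mice. The Eµ-TCL1 mice lay close together and far above wildtype, whereas Eµ-MTCP1 mouse 1 lay just above the highest wildtype mouse. On full-length transcripts of the standard reference that mouse lay below all wildtype mice, at 14.6 TPM (a level per transcript length) against 17.6, 21.7 and 16.01 TPM. The level rose 3.61-fold in Eµ-TCL1 mice (log2 change 1.85 ± 0.31 SE, adjusted p = 0.00487), a call that held in all 19 alternatives. In Eµ-MTCP1 mice it rose 2.34-fold (1.23 ± 0.31, adjusted p = 0.0331), but this call passed in 9 of 19 alternatives. It was lost on full-length transcripts of the standard reference (log2 fold change 0.86, adjusted p = 0.118), on the deposited gene counts (0.84, adjusted p = 0.117) and their CLEAR-filtered form (adjusted p = 0.104), without TMM factors (0.0655), in a fit of these 2 groups alone (0.0611), and without Eµ-MTCP1 mouse 2 (adjusted p = 0.0922) or 3 (0.0934) or wildtype mouse 1 (0.053), 2 (0.106) or 3 (0.134). Reads on the coding sequence were 41.1 to 45.3% of the reads that the standard reference gave to Cd44 in transgenic mice, and 41.0, 36.2 and 22.8% in wildtype mice 1 to 3. Over all genes this share was 53.6 to 58.8% in every library.

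The promoters of the genes that rose are shown because each was called higher in both comparisons on the coding-sequence counts. RefSeq windows (GRCm38.p6) were matched for 6 of the 10 genes, and the 250 bases before the start are given 5′ to 3′ on the strand of the gene for Itgb7 (chr15:102231936-102232185, minus strand), Itgb1 (chr8:128685404-128685653, plus strand) and Cd44 (chr2:102901666-102901915, minus strand). Capitals mark matches, on either strand, to the GC box GGGCGG, the ETS core CCGGAA, the AP-1 site TGANTCA and the RUNX site TGTGGT.
Itgb7: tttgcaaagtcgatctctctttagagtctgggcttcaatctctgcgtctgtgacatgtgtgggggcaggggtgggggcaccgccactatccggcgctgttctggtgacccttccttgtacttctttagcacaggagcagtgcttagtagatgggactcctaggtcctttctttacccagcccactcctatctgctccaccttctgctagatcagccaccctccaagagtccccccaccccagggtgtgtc
Itgb1: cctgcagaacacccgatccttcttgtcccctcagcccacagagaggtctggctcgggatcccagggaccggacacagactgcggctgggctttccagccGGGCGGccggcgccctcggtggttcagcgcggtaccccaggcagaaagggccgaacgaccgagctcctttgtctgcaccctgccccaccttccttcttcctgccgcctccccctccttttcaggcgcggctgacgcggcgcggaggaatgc
Cd44: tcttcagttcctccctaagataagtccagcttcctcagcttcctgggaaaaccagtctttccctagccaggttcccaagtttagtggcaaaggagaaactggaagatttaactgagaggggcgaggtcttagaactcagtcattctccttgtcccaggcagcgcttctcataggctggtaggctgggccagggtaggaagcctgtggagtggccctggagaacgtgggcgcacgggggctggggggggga
The only match in these windows was a GGGCGG that begins 151 bases before the start of Itgb1. Of 32851 mouse promoter windows of this length, 32.7% held GGGCGG, 12.03% CCGGAA, 6.75% TGANTCA and 14.045% TGTGGT. No motif was found in more than 1 of the 3 windows.

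Itgb3 (chr11:104608000-104670476, plus strand) encodes the beta chain of the vitronectin receptor and of the platelet fibrinogen receptor, and on the coding-sequence counts it was the only one of the 10 genes that fell in these comparisons. It had 3, 7 and 3 reads in Eµ-MTCP1 mice, 7, 12 and 14 reads in Eµ-TCL1 mice and 46, 78 and 58 reads in wildtype mice. These reads correspond to 0.496, 0.996 and 0.493 CPM, to 0.982, 1.48 and 1.94 CPM and to 6.96, 8.48 and 7.20 CPM. All 6 transgenic mice lay below all wildtype mice, as did 9.15% of all tested genes, and Eµ-MTCP1 mice 1 and 3 lay at the floor of 3 reads. The level was 11.04-fold lower in Eµ-MTCP1 mice (log2 fold change -3.46 ± 0.56 SE, adjusted p = 0.0037) and 5.10-fold lower in Eµ-TCL1 mice (-2.35 ± 0.52, adjusted p = 0.018). Itgb3 passed the filter on low counts through its wildtype reads, and with 3 to 14 reads per transgenic library the size of both folds is uncertain.

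The Itgb3 call in Eµ-MTCP1 mice held in all 18 alternatives in which the gene was tested. In Eµ-TCL1 mice it was lost without Eµ-TCL1 mouse 1 (adjusted p = 0.0711) or 2 (0.0558), without wildtype mouse 1 (0.0511), 2 (0.0845) or 3 (0.0625), and without both libraries rich in neutrophil reads (0.0651). Platelet and megakaryocyte genes summed to 0.615 to 4.63 CPM in transgenic and 0.757 to 1.74 CPM in wildtype mice, 4 of the 6 (Pf4, Ppbp, Gp6 and Treml1) having at most 3 reads in every library, and Itga2b, the platelet partner of Itgb3, was at 0 to 2.21 and 1.06 to 2.11 CPM. The sum of 6 dendritic cell genes, most of it from Flt3 and Cd209a in wildtype mice, was 2.24 to 14.8 CPM in transgenic and 23.6 to 40.4 CPM in wildtype mice, with Clec9a at 3 reads or fewer in every library. Of these genes 3 had enough reads to be tested, and Flt3 alone was called lower, in Eµ-TCL1 but not in Eµ-MTCP1 mice. Of the follicular and marginal zone genes, whose sum is given above, 3 of 5 were called lower in both comparisons and S1pr1 and Cd1d1 were not, and the part of either list in the Itgb3 result was not tested.

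On the coding-sequence counts the other 6 genes were not called in either comparison with wildtype. They lie on the plus strand at chr10:77530252-77565708 (Itgb2), chr7:127296260-127335138 (Itgal), chr2:79255426-79333123 (Itga4), chr2:71745616-71858416 (Itga6), chr7:128062640-128118491 (Itgam) and chr7:128129547-128150657 (Itgax). Itgb2, the common beta chain of leukocyte integrins, was at 289 to 331 CPM in Eµ-MTCP1, 309 to 433 CPM in Eµ-TCL1 and 235 to 342 CPM in wildtype mice. Its partner Itgal, the alpha chain of lymphocyte function-associated antigen, was at 195 to 358, 223 to 327 and 173 to 281 CPM. Both were abundant in all mice, and their log2 fold changes lay between 0.03 and 0.34 with SE of 0.21 to 0.27.

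Itga4 is the alpha chain that pairs with the products of Itgb1 and Itgb7. It was at 26.3, 56.1 and 39.8 CPM in Eµ-MTCP1 mice, at 36.0, 47.6 and 42.4 CPM in Eµ-TCL1 mice and at 46.5, 48.1 and 75.7 CPM in wildtype mice. Its groups overlapped, although on the standard reference all transgenic mice (6.09 to 14.2 TPM) lay below all wildtype mice (15.2 to 21.3 TPM). Its log2 fold changes were -0.48 ± 0.29 SE in Eµ-MTCP1 mice (adjusted p = 0.34) and -0.43 ± 0.29 SE in Eµ-TCL1 mice (adjusted p = 0.396), while both of its beta partners rose. Itga6, a chain of laminin receptors, was at 0.996 to 2.98 CPM in Eµ-MTCP1, 1.72 to 3.33 CPM in Eµ-TCL1 and 3.03, 10.9 and 3.72 CPM in wildtype mice 1 to 3. The highest value was that of wildtype mouse 2, which also had the most neutrophil reads, and the part of those cells in it was not tested. On the standard reference all transgenic mice (0.509 to 2.11 TPM) lay below wildtype mice 1 to 3 (2.29, 4.73 and 2.42 TPM). On the coding-sequence counts the log2 fold change of Itga6 was -1.46 ± 0.66 SE in Eµ-MTCP1 mice (adjusted p = 0.199) and -1.28 ± 0.65 SE in Eµ-TCL1 mice (adjusted p = 0.254). Without wildtype mouse 2 alone these values were -0.67 ± 0.69 SE and -0.48 ± 0.69 SE. Itga6 passed in Eµ-MTCP1 mice on the CLEAR-filtered gene counts (-1.66 ± 0.46 SE, adjusted p = 0.046). It also passed in the mean of both transgenic groups on the deposited gene counts (-1.32 ± 0.39 SE, adjusted p = 0.0455) and on their CLEAR-filtered form (-1.33 ± 0.38 SE, adjusted p = 0.0382), and without the libraries of Eµ-MTCP1 mouse 1 and wildtype mouse 2 its value in that mean on the coding-sequence counts was -0.76 ± 0.61 SE (adjusted p = 0.489).

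Itgam and Itgax encode the alpha chains of complement receptors that myeloid cells carry in quantity. Itgam was at 88.5, 25.3 and 48.8 CPM in Eµ-MTCP1 mice, at 19.1, 27.9 and 61.7 CPM in Eµ-TCL1 mice and at 26.03, 45.9 and 22.7 CPM in wildtype mice. Its highest values within the Eµ-MTCP1 and wildtype groups were those of the libraries with the most neutrophil reads. Itgam overlaps Gm49368 on the same strand, whose main coding transcript took 0 to 36.3 reads per library, so its values are uncertain. Itgax was at 0.165 to 6.83 CPM in Eµ-MTCP1, 0.561 to 29.5 CPM in Eµ-TCL1 and 7.20 to 17.4 CPM in wildtype mice. The spread of Itgax within the Eµ-TCL1 group exceeded that between groups, and Eµ-TCL1 mouse 3, its highest, also had the highest sum of monocyte and macrophage genes (1397 CPM, against 341 to 1259 CPM in the other libraries). The part of these cells in the values of Itgam and Itgax was not tested.

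None of the 10 genes was called between Eµ-TCL1 and Eµ-MTCP1 mice, where 0.00896% of all tested genes were called by edgeR. None had an unadjusted p of edgeR under 0.05, where 713 of 11161 tested genes did. DESeq2 called 69 of 11161 genes but none of the 10, and also gave 0 unadjusted p under 0.05 among them. Under other alternatives an unadjusted p of edgeR under 0.05 was reached by Cd44 (with library size alone, with no filter on low counts and without Eµ-MTCP1 mouse 2), Itgb3 (on deposited gene counts and without Eµ-MTCP1 mouse 2), Itgax (without Eµ-MTCP1 mouse 2 or Eµ-TCL1 mouse 1) and Itgam (without Eµ-TCL1 mouse 3), each with an adjusted p of at least 0.358. The lowest p was that of Cd44, which was 1.54-fold higher in Eµ-TCL1 mice (log2 difference 0.63 ± 0.30 SE, edgeR adjusted p = 0.79). Itgb3, with 3 to 14 reads per transgenic library, passed the filter through its wildtype reads and had too few to be tested in a fit of the transgenic groups alone. The difference of Itgb7 was 0.11 ± 0.35 SE and that of Itgb1 -0.33 ± 0.24 SE, and with 3 mice per group this does not show that the leukemias are alike.

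Levels of different genes were compared per coding length, in TPM, over transcripts with at least 500 coding bases. Itgb7 was the highest of the 10 in each group, at 127 ± 18.7 TPM in wildtype, 329 ± 102 TPM in Eµ-MTCP1 and 380 ± 156 TPM in Eµ-TCL1 mice (mean ± SD, n = 3), and its lowest mouse lay above the highest mouse of the next gene, Itgb2, in each. In wildtype mice Itgb2 (74.3 ± 18.2 TPM), Itgal (36.0 ± 6.49), Cd44 (18.2 ± 3.06) and Itgb1 (9.72 ± 1.53) followed, each clear of its neighbour, whereas Itgb1 and Itga4 (8.48 ± 1.77) overlapped. In Eµ-MTCP1 mice Itgb1 reached 47.9 ± 9.18 TPM and overlapped with Itgb2 (58.4 ± 4.32) and Itgal (34.5 ± 10.8). In Eµ-TCL1 mice Cd44 followed Itgb2 at 54.7 ± 1.21 TPM, above every value of Itgb1 (39.7 ± 9.02). This order turned on the standard reference, where Itgb1 was at 78.7, 57.9 and 52.6 TPM and Cd44 at 52.3, 51.9 and 48.4 TPM in Eµ-TCL1 mice 1 to 3. In wildtype mice Itga4 (19.1 ± 3.41 TPM) came before Cd44 (18.4 ± 2.97) and Itgb1 (13.9 ± 1.73) there. Per coding length, Itga4 was at 4.96 ± 1.77 and 5.36 ± 0.71 TPM in Eµ-MTCP1 and Eµ-TCL1 mice. The levels of its beta partners per coding length exceeded its own in every mouse of all 3 groups. In wildtype mice 1 to 3 Itgb1 was at 7.95, 10.6 and 10.7 TPM, against 6.58, 8.78 and 10.1 TPM for Itga4. Itgb3, Itgax and Itga6 were the lowest 3 in all groups, with means of at most 1.76 TPM, and overlapped with each other in wildtype mice.

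**Figure D3:**
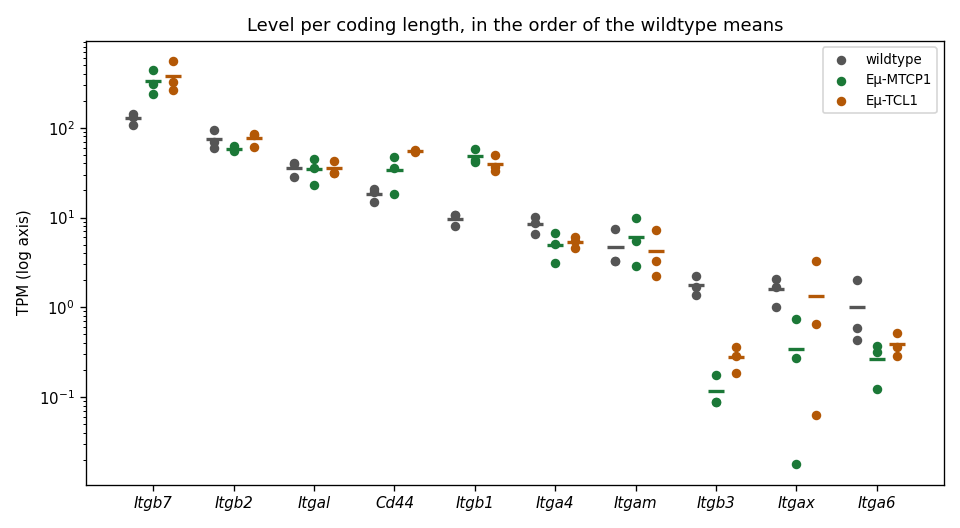
Level per coding length in TPM (log axis) of each gene in each mouse, with short lines at group means and genes in the order of their wildtype means. Itgb7 was highest in each group, and Itgb1 rose from 9.72 TPM in wildtype to 47.9 and 39.7 TPM in Eµ-MTCP1 and Eµ-TCL1 mice.

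Ratios of 2 genes within a library do not depend on scaling between libraries. The 4 ratios examined did not differ between the 6 transgenic and 3 wildtype mice beyond their spread (two-sided exact permutation test, in which the smallest possible p is 0.0119, adjusted over the 4). The log2 ratio of Itgb7 to Itgb1 averaged 2.25 ± 0.77 in transgenic and 2.71 ± 0.95 in wildtype mice (mean ± SD, exact permutation p = 0.452, adjusted p = 0.857). It was 1.06, 2.34 and 2.40 in Eµ-MTCP1, 3.13, 1.67 and 2.92 in Eµ-TCL1 and 3.46, 3.03 and 1.64 in wildtype mice. A short Itgb1 transcript of 177 coding bases, which held 8.49 reads in wildtype mouse 3, made up 29.0 TPM there, and without transcripts under 500 coding bases that mouse had a ratio of 3.30 and the difference between groups was -0.72 (exact permutation p = 0.0952, adjusted p = 0.381). On the standard reference the difference was -0.77 (exact permutation p = 0.0238, adjusted p = 0.0952).

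The log2 ratio of Itga4 to Itga6 averaged 3.64 ± 0.74 and 3.21 ± 0.99 in transgenic and wildtype mice, that of Itgal to Itgb2 -1.07 ± 0.34 and -1.12 ± 0.10, and that of Itgam to Itgal -2.89 ± 0.64 and -3.01 ± 0.56, each with an adjusted p of 0.857 in the exact permutation test. Comparisons of 3 against 3 mice cannot go below 0.1 in this test and were not run.

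**Figure D4:**
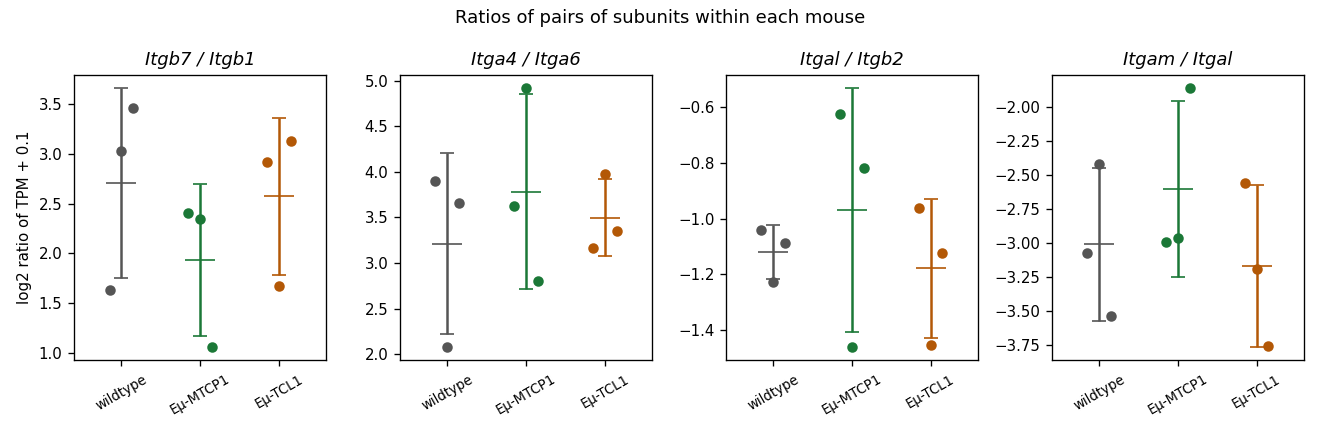
Log2 ratio of TPM (pseudocount 0.1) of 4 pairs of subunits within each mouse, with group means and bars of 1 SD (n = 3 per group). The groups overlapped in all 4 ratios.

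The reads of a gene can come from several splice forms. The Cd44 transcript with 1098 coding bases took 90.8 to 97.4% of the Cd44 reads in every mouse on the coding-sequence reference. On the full-length transcripts of the standard reference it took 56.7 to 65.3% in transgenic mice and 53.6, 46.6 and 31.5% in wildtype mice 1 to 3, so that the groups did not overlap there. The means were 60.3% in transgenic and 43.9% in wildtype mice (exact permutation p = 0.0119, the lowest that 6 against 3 mice can give, adjusted p = 0.0714 over 6 genes). A Cd44 transcript with 1734 coding bases took most of the rest, at 29.2 to 38.4% in transgenic and 42.7 to 63.7% in wildtype mice. On the coding-sequence reference this transcript took 0 reads in wildtype mice and at most 10.9 reads in a transgenic mouse. Whether its share on the standard reference reflects a splice form or reads outside the coding sequence was not tested. The Itgb7 transcript with 2421 and the Itgb1 transcript with 2397 coding bases took at least 99.3 and 98.3% of the coding-sequence reads of their genes in every mouse, and at least 87.8 and 86.9% on the standard reference. Among the 6 genes with at least 50 reads in every library and more than 1 transcript, the largest difference on the coding-sequence reference was that of the Itgal transcript with 3492 coding bases, which took 40.5% of Itgal reads in transgenic and 48.1% in wildtype mice (two-sided exact permutation test p = 0.262, adjusted p = 0.457). This transcript was given no reads in any mouse on the standard reference.

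Genes with the most similar log2 CPM over the 9 libraries are given as a description, since the libraries fall into groups and share their scaling. For Itgb1 these were Prps2 (Pearson r = 0.993) and Robo1 (0.987), for Itgb7 Plekhb2 (0.984) and S100a6 (0.981), for Cd44 Vim (0.987), the intermediate filament vimentin, and Sh3bgrl2 (0.985), and for Itgb3 Abcb1a (0.987), a drug efflux pump. Vim was at 572 to 1610 CPM in transgenic and 326 to 496 CPM in wildtype mice, and Abcb1a at 0 to 0.831 and 3.94 to 6.74 CPM. Among the 10 genes, Itgb7 and Cd44 were the most alike (r = 0.888), followed by Itgb7 and Itgb1 (0.862).

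The wider adhesion machinery was examined in 6 lists of 87 genes, 68 of them tested. In Eµ-MTCP1 mice 7 rose and 4 fell, and in Eµ-TCL1 mice 5 rose and 2 fell, which is 11 of 68 and 7 of 68, where 9.49% and 9.16% of all genes were called. The median log2 fold change of the tested genes was -0.09 in Eµ-MTCP1 and 0.11 in Eµ-TCL1 mice. In neither comparison did most genes of any list pass.

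Of 9 tested alpha subunits outside the 10 genes, 1 was called, and of 2 tested beta subunits none. Itga8, the alpha chain of the nephronectin receptor, was at 14.9, 20.5 and 5.10 CPM in Eµ-MTCP1 mice, 0.14, 4.06 and 2.91 CPM in Eµ-TCL1 and 0, 0.326 and 0.372 CPM in wildtype mice, where no mouse had over 3 reads. It rose in Eµ-MTCP1 mice (adjusted p = 0.0107), by a fold that depends on the prior count. Eµ-TCL1 mouse 1 overlapped with wildtype, and Itga8 was not called in Eµ-TCL1 mice (adjusted p = 0.102) or between the transgenic groups (adjusted p = 0.692).

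Among 27 tested activators and adaptors, 3 rose and 2 fell in Eµ-MTCP1 mice, and 2 rose and 2 fell in Eµ-TCL1 mice. Ptk2b, the kinase Pyk2, fell in both, from 495 to 589 CPM in wildtype mice to 135 to 204 CPM in Eµ-MTCP1 mice (log2 fold change -1.61 ± 0.25 SE, adjusted p = 0.00319) and 134 to 240 CPM in Eµ-TCL1 mice (-1.53 ± 0.25, adjusted p = 0.00402). Its relative Ptk2, the focal adhesion kinase, was at 11.7 to 18.2 CPM in wildtype, 32.9 to 42.4 CPM in Eµ-MTCP1 mice and 20.9 to 47.4 CPM in Eµ-TCL1 mice, and rose in Eµ-MTCP1 mice (1.39 ± 0.33, adjusted p = 0.0275) while missing the threshold in Eµ-TCL1 mice (1.17 ± 0.33, adjusted p = 0.0543). Vcl, which encodes vinculin and links talin to actin, rose in both (1.51 ± 0.41, adjusted p = 0.046, and 2.07 ± 0.42, adjusted p = 0.0119). Lims1, the Ilk-binding adaptor Pinch, rose by 0.65 ± 0.18 (adjusted p = 0.04995) and 0.71 ± 0.18 (adjusted p = 0.0354). Cyth1, which encodes cytohesin, a binder of the Itgb2 tail, fell in both (-0.86 ± 0.21, adjusted p = 0.0271, and -1.20 ± 0.21, adjusted p = 0.00559). Talin (Tln1) and kindlin (Fermt3), which switch integrins on, averaged 801 and 389 CPM over the 9 libraries and were not called.

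Of 8 tested ligands and counter-receptors, 1 rose. F11r, a junctional adhesion molecule that binds the dimer of Itgal and Itgb2, was at 31.9, 61.8 and 39.3 CPM in Eµ-MTCP1 mice and 90.1, 9.47 and 90.5 CPM in Eµ-TCL1 mice, and at 0.151, 0.109 and 1.12 CPM in wildtype mice. It was called in both comparisons (log2 fold change 6.53 ± 0.99 SE, adjusted p = 0.0027, and 7.05 ± 1.0005 SE, adjusted p = 0.00186), and because wildtype mice 1 and 2 lay below the floor of 3 reads these fits depend on the prior count. Madcam1, the ligand of the Itga4 and Itgb7 dimer, stayed at or below 0.454 CPM and was not tested, and Vcam1 and Fn1 were tested and not called.

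Of 14 tested Cd44 partners and linkers, St3gal1, a sialyltransferase, rose in both comparisons, from 12.8 to 22.9 CPM in wildtype mice to 49.0 to 92.6 CPM in Eµ-MTCP1 mice and 52.8 to 90.8 CPM in Eµ-TCL1 mice (log2 change 2.04 ± 0.33 SE, adjusted p = 0.00367, and 2.06 ± 0.33 SE, adjusted p = 0.0035). The linkers Ezr and Msn, which tie Cd44 to actin, averaged 759 and 660 CPM over the 9 libraries and were not called.

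Tetraspanins hold integrins in membrane domains. Cd9 rose in both comparisons, from 49.5 to 55.9 CPM in wildtype mice to 153 to 335 CPM in Eµ-MTCP1 mice and 105 to 323 CPM in Eµ-TCL1 mice (2.16 ± 0.41, adjusted p = 0.00917, and 2.21 ± 0.41, adjusted p = 0.00824). Cd82 fell in Eµ-MTCP1 mice, from 108 to 157 CPM to 35.9 to 65.6 CPM (-1.31 ± 0.25, adjusted p = 0.00828), and was at 71.0 to 85.6 CPM in Eµ-TCL1 mice (-0.80 ± 0.24, adjusted p = 0.0661). The other 6 tetraspanins tested were not called. Whether any of these genes differed between the transgenic groups was tested in the same fit, and none was called.

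**Figure D5:**
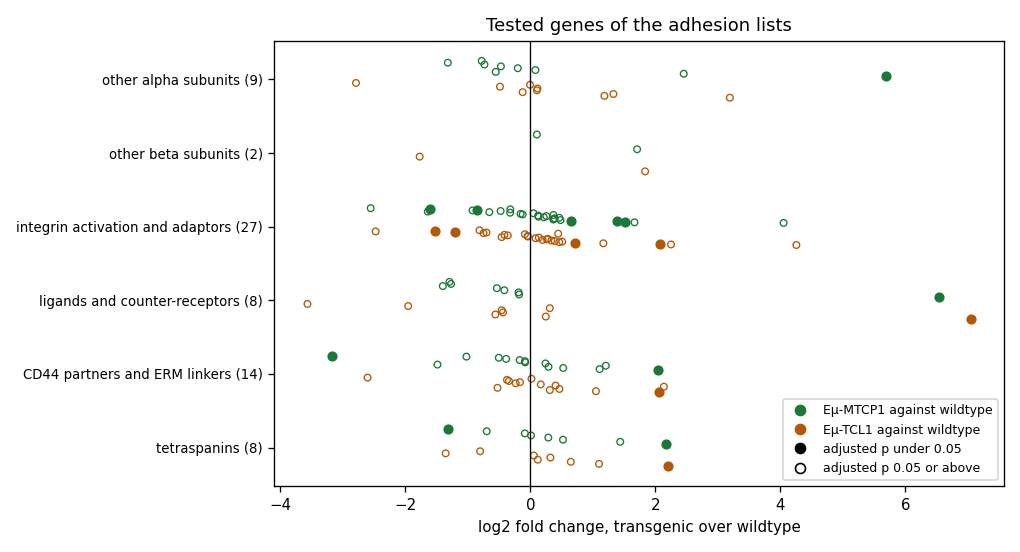
Log2 fold change over wildtype (horizontal axis) of every tested gene of the 6 adhesion lists, the number tested in brackets, in Eµ-MTCP1 and Eµ-TCL1 mice. Filled points mark an adjusted p under 0.05, at most 5 per list in a comparison; the points at the far right are F11r (6.53 and 7.05) and Itga8 (5.69, Eµ-MTCP1 only filled).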

How the data were processed

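RNA was sequenced from splenic B cells of 9 mice, 1 library per mouse. Per the submitters' processing notes the tools were CASAVA 1.8.2, HISAT2 2.0.6, Subread featureCounts, DESeq2 and Salmon 1.0.0 on GRCm38.p4. The authors deposited Salmon tables of estimated counts and TPM per transcript on a standard and on a custom reference, the latter of which held mouse coding sequences (87.3% of lengths were multiples of 3) and human transgenes. The authors also deposited gene counts, CLEAR-filtered counts and DESeq2-transformed log2 values, and effective lengths per transcript. The B-cell libraries had 6443751 to 7985864 custom-reference reads on mouse genes, which sets the floor of 3 reads.

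Estimated counts were summed per gene (GENCODE M21), rounded, filtered by filterByExpr and scaled by TMM. All 9 libraries entered 1 quasi-likelihood fit (edgeR 4.0.16, limma 3.58.1, R 4.3.3) with group as the only term, and p-values were adjusted by the Benjamini-Hochberg method over 11161 genes. The replicates are separate mice, numbered within groups for naming only, and wildtype mouse 2 was sequenced in another lane. Ratios and transcript shares were compared by exact permutation tests, two-sided. The pathway genes named in the text were those called in a comparison with wildtype, ordered by size of change, up to 12, and the genes most alike were the 2 with the highest Pearson correlation. Some of the genes these rules name are not reported here. Scripts were tested on simulated data. The 10 genes, the lists and the tests were chosen with earlier results of these data known. Other references, count tables, scalings, filters, DESeq2 1.42.0 and leaving out each mouse were tried as alternatives. The CLEAR-filtered row named Itgam was left out because it held the values of Gm49368. Columns of all samples were mapped, and human transcripts and transcripts outside the annotation stayed out of the fits (together 0.19 to 0.834% of reads).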

Additional observations from a re-analysis of the deposited data

How the results depend on the processing

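The calls of Itgb7, Itgb1, Cd44 and Itgb3 in the mean of both transgenic groups against wildtype held in every alternative in which each was tested, and the losses in the single comparisons are given with the genes. Leaving out 1 mouse at a time left 2 to 4 of the 10 genes called in Eµ-MTCP1 mice, 2 to 4 in Eµ-TCL1 mice, 4 to 4 in their mean and 0 to 0 between transgenic groups. In the same fits 524 to 1025, 514 to 1236, 761 to 1612 and 1 to 4 of all 11374 to 11466 tested genes were called. The fewest calls over all genes in both single comparisons came without wildtype mouse 3, where 2 of the 10 genes were called in each. Without TMM factors, all tested genes had a median log2 fold change of -0.26 in Eµ-MTCP1 and -0.15 in Eµ-TCL1 mice. No paired analysis was possible because the labels give the groups no shared replicate numbers.

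None of the values that changed sign was called, and the cause was not tested. The difference in the log2 ratio of Itga4 to Itga6 was -0.11 with a pseudocount of 1 TPM and -0.14 to 0.77 with 1 mouse left out, that of Itgam to Itgal -0.28 on deposited gene counts and -0.14 to 0.42, and that of Itgal to Itgb2 -0.045 to 0.12. The ratio of Itgb7 to Itgb1 ranged from -0.99 to -0.08, and the shift of the Itgal transcript was 0 on the standard reference and -9.21 to -4.66 percentage points with 1 mouse left out. With library size alone, the log2 fold change of Itgb2 was -0.21 in Eµ-MTCP1 mice and -0.0029 in the mean, that of Itgax -0.080 in Eµ-TCL1 mice, and that of Itgal 0.036 between transgenic groups. In Eµ-TCL1 mice Itgam was at -0.28 on deposited gene counts, and Itgax at -0.010 with length offsets, -0.058 on gene counts and -0.062 without both libraries rich in neutrophil reads, a setting chosen after seeing the data. In that setting, Itgb7 differed by -0.083 and Itga4 by -0.18 between transgenic groups. With 1 mouse left out, Itgb2 ranged from -0.14 to 0.11 in Eµ-MTCP1 mice, and Itgam from -0.42 to 0.57 and Itgax from -1.89 to 0.59 in Eµ-TCL1 mice. Between transgenic groups Itgb7 ranged from -0.30 to 0.38, Itga4 from -0.20 to 0.35, Itga6 from -0.16 to 0.49, Itgax from -0.022 to 3.16 and Itgal from -0.26 to 0.18.

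Depth limits Itgb3, Itga6 and Itgax, which had as few as 3, 7 and 1 reads in a library.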

Other observations

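B-cell surface genes that are no adhesion genes also did not overlap between transgenic and wildtype mice: Cd5, a marker of B1 cells, was at 23.9 to 83.5 CPM in transgenic and 0.745 to 4.84 CPM in wildtype mice, and Fcer2a, a follicular B-cell receptor for IgE, at 2.10 to 15.1 and 293 to 414 CPM.

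The reads that the standard reference gave to Itgb3 lay mostly outside its coding sequence in wildtype mice, where 20.9 to 30.5% of 207 to 277 reads were coding. In transgenic mice the share was 20 to 70% of 6 to 56 reads.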
